A study of Capsicum chinense and Capsicum frutescens with 8 samples.

Results

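Fully expanded leaf of Capsicum chinense was compared with stem, flower buds and fruit of the same plant line, by the conserved microRNA (miRNA) reads listed for each organ. The comparison rests on 4 of the 8 small RNA libraries of the series, 1 for leaf and 3 for the other organs. The plant is Bhut jolokia, a very pungent chilli, and the other 4 libraries hold the same organs of C. frutescens (Acc. 4), used here only where they bear on leaf. No treatment is named, and all plants grew in a glass house at 24 to 26 °C with 16 hours of light; the fruit library pools stages from 5 to 60 days after flower opening. Each library was made from total RNA pooled over 3 biological replicates of 1 genotype, so every organ has 1 library and no replicate. No p-value is therefore given: the organ and its library cannot be told apart, and with 1 library against 3 an exact permutation test could not go below 0.25. Since the sheets list small RNAs only, the leaf label could not be checked against marker genes.

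Plant miRNAs are RNAs of about the length of a siRNA that an Argonaute protein uses to cut or silence messenger RNAs with a near-perfect match. Many families are shared over land plants and control development through transcription factors, others act on copper proteins, on resistance genes or on the miRNA machinery itself, and some names in plant miRNA lists are held by pieces of rRNA or tRNA. In leaves, miR165 and miR166 set the upper and lower side of the blade, miR159 restrains GAMYB genes, miR319 and miR396 shape the blade through TCP and growth-regulating factors, and miR156 marks the juvenile phase.

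All entries that carry 1 miR number were taken as 1 family, their reads added up, and the level of a family is its share of the conserved reads listed in a library. Because miR166 took most reads, each share was also taken of the listed reads other than miR166. A family counted as apart in leaf where its leaf share lay 4-fold or more above the highest or below the lowest share of stem, flower and fruit, with 50 or more reads over the 4 libraries. Under both kinds of share 7 of 54 families (13.0% of those tested) were apart and higher in leaf and 1 of 54 (1.85%) was apart and lower. The 7 higher were miR3711, miR894, miR7767, miR858, miR6023, miR159 and miR8155, and the lower one was miR162. Without leaf, 5 of these 7 families (miR3711, miR894, miR7767, miR6023 and miR8155) would not have reached 50 reads, against 7 of all 55 families with 50 or more reads. Such a family entered the comparison through leaf itself, so the count of 7 is given as a description of these libraries. Counted over entries printed with 24 nt or less, 2 of the 7 (miR858 and miR6023) were apart under both shares and the other 5 were not, since most of their leaf reads stand under longer sequences.

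The sheets print 1 RNA sequence for each entry in each library. For the entry that holds most leaf reads of each of the 8 families, the sequence is shown for leaf first and then for an organ set against it, in capitals where all C. chinense libraries that list the entry share the run. The core of miR858 is listed mostly under ath-miR858b in leaf and under ppe-miR858 in stem and flower. These are the sequences on which the comparison turns, since they show which core the organs share under a name and how the rest of the printed sequence differs. For miR8155 the shared run is 11 bases, and the sequences differ inside as well as at the ends.
miR3711 (entry pab-miR3711), leaf: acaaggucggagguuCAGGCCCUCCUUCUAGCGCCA
miR3711 (pab-miR3711), stem: gagguuCAGGCCCUCCUUCUAGCGCCA
miR3711 (pab-miR3711), fruit: CAGGCCCUCCUUCUAGCGCCA
miR894 (ppt-miR894), leaf: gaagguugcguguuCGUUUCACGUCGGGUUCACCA
miR894 (ppt-miR894), stem: CGUUUCACGUCGGGUUCACCA
miR7767 (bdi-miR7767-5p), leaf: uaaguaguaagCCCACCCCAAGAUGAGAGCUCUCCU
miR7767 (bdi-miR7767-5p), stem: agCCCACCCCAAGAUGAGAGCUCUCCU
miR858 (ath-miR858b), leaf: CUCAUUGUCUGUUCGACCUUGuc
miR858 (ppe-miR858), flower: CUCAUUGUCUGUUCGACCUUG
miR6023 (stu-miR6023), leaf: uucCAUGAAAGGGUUUUUGGAU
miR6023 (stu-miR6023), flower: CAUGAAAGGGUUUUUGGAUaag
miR159 (ath-miR159a), leaf: UUUGGAUUGAAGGGAGCUCUAUucu
miR159 (ath-miR159a), stem: UUUGGAUUGAAGGGAGCUCUAUuuu
miR8155 (cpa-miR8155), leaf: aggaucguaaccuggCUCUGAUACCA
miR8155 (cpa-miR8155), fruit: aauuaaccuguCUCUGAUACCAgc
miR162 (ath-miR162b-3p), leaf: UCGAUAAACCUCUGCAUCCAGCGCCCUUA
miR162 (ath-miR162b-3p), fruit: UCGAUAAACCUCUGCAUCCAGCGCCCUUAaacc

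The core of miR858 was printed as a run of 21 bases and that of miR159 as one of 22, while the leaf sequences of miR3711, miR894 and miR7767 carried 15, 14 and 11 further bases at the 5′ end. The stem sequence of the same entries carried 6, 0 and 2. A printed sequence is thus not read as the mature form, and it stands for all reads of its entry, whose own lengths are unknown. The leaf sequence of miR894 was the same, letter for letter, as the one printed in all 4 C. frutescens libraries, a match that stem, flower and fruit of C. chinense did not have. For 3 of the 7 higher families (miR3711, miR894 and miR8155) the leaf sequence ended in CCA, the letters that close a mature tRNA. Of all 823 leaf entries 17 (2.07%) ended that way, and a match of 3 letters is a description only.

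Counted by reads, printed length set leaf apart from the other organs, mostly through a few entries with many reads. In leaf, 93.1% of the listed reads stood under entries printed with more than 28 nt, against 3.63%, 1.22% and 3.02% of those in stem, flower and fruit. Stem, flower and fruit had 70.9%, 92.6% and 88.4% of their reads at exactly 28 nt, nearly all of them miR166, against 0.0301% in leaf. The size of this contrast thus hangs on the cut at 28 nt. Outside miR166 the shares above 28 nt were 85.6% in leaf against 33.5%, 19.9% and 30.99%, and without miR6300 as well they were 76.3% against 22.1%, 15.3% and 20.6%. In C. frutescens, leaf, stem, flower and fruit had 76.8%, 88.9%, 72.1% and 60.0% of their listed reads in such entries. Outside miR166 they had 78.8%, 89.8%, 61.7% and 24.5%, and without miR6300 as well 71.1%, 84.3%, 58.7% and 5.06%, so C. frutescens fruit did not share the high values of C. chinense leaf on these counts. Of the 823 leaf entries 130 (15.8%) were that long, against 10.7%, 14.8% and 12.7% of the entries in stem, flower and fruit. Over entries shared with leaf, the median difference in printed length was 0 nt for each of these organs. Most of the leaf reads above 28 nt stood under pta-miR166a (326784 reads), gma-miR166k (176273) and gma-miR6300 (115315). The first of these, named after loblolly pine, is the most abundant entry of all. Its sequence is shown because its printed length differs between leaf and the other organs.
miR166 (pta-miR166a), leaf: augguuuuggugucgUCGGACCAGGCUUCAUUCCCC
miR166 (pta-miR166a), stem: gugauuUCGGACCAGGCUUCAUUCCCCu
miR166 (pta-miR166a), flower and fruit: gacgaucUCGGACCAGGCUUCAUUCCCC
In leaf this sequence had 36 nt, against 28 nt in each of the other organs, with the same run of 21 bases inside.

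**Figure D1:**
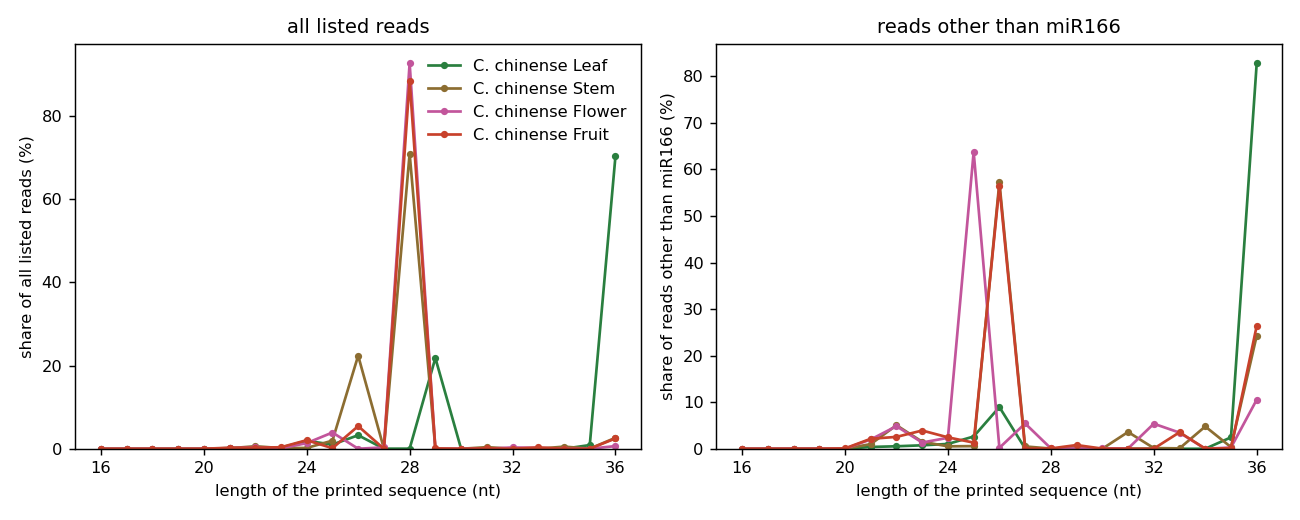
Share of listed reads (%, y axis) by the length of the printed sequence (nt, x axis) in the 4 C. chinense libraries, for all reads on the left and for reads other than miR166 on the right. Leaf has its highest point at 36 nt in both panels, while stem, flower and fruit have theirs at 28 nt for all reads and at 25 or 26 nt without miR166.

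By rank of shares, leaf stood nearer to leaf, stem and flower of C. frutescens than to the other organs of its own plant. Over 54 families, Spearman's rho of the leaf shares was 0.39 with stem, 0.37 with flower and 0.43 with fruit of C. chinense. With C. frutescens leaf, stem, flower and fruit it was 0.91, 0.80, 0.78 and 0.51. The other C. chinense organs had rho from 0.66 to 0.78 among themselves. These values are descriptions across families, which share their library, its depth and its list of entries. The families were chosen by their reads over the C. chinense libraries with leaf among them. Without leaf, 7 of the 55 with 50 or more reads would not have been chosen: miR3711, miR894, miR7767, miR6023, miR8155, miR4376 and miR7997. How far this choice lowers rho with stem, flower and fruit was not tested. When 8 names often traced to rRNA or tRNA fragments and miR3711 were left out, rho over 45 families was 0.58, 0.51 and 0.60 with C. chinense stem, flower and fruit and 0.88, 0.72, 0.69 and 0.54 with the C. frutescens libraries in the same order, where fruit came below C. chinense stem and fruit. Of the families chosen only through leaf, miR7767, miR6023, miR4376 and miR7997 were still among the 45. By the part of the shares of all reads that 2 libraries have in common, the overlap with leaf was 73.0%, 69.1% and 72.2% for C. chinense stem, flower and fruit, and 92.6%, 86.0%, 67.5% and 83.3% for C. frutescens leaf, stem, flower and fruit, with C. frutescens flower the lowest. Without miR166 it was 50.8%, 42.3% and 50.2%, and 83.5%, 86.6%, 63.2% and 60.7%. The leaf share lay inside the range of the 4 C. frutescens libraries for 42 of 55 families, against 23 for stem, 24 for flower and 23 for fruit of C. chinense. Leaf shared 5, 6 and 6 of its 10 most abundant families with C. chinense stem, flower and fruit, and 8, 8, 7 and 7 with C. frutescens leaf, stem, flower and fruit. Every result on leaf below rests on this 1 library, which stood apart from its own plant's organs in printed length by reads and in the rank order of the families so chosen. Within C. chinense an effect of leaf, a separate handling of this library and a mix-up of libraries cannot be told apart, and the label is taken as given. The values of C. frutescens leaf are therefore given beside each family that was apart under both shares.

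**Figure D2:**
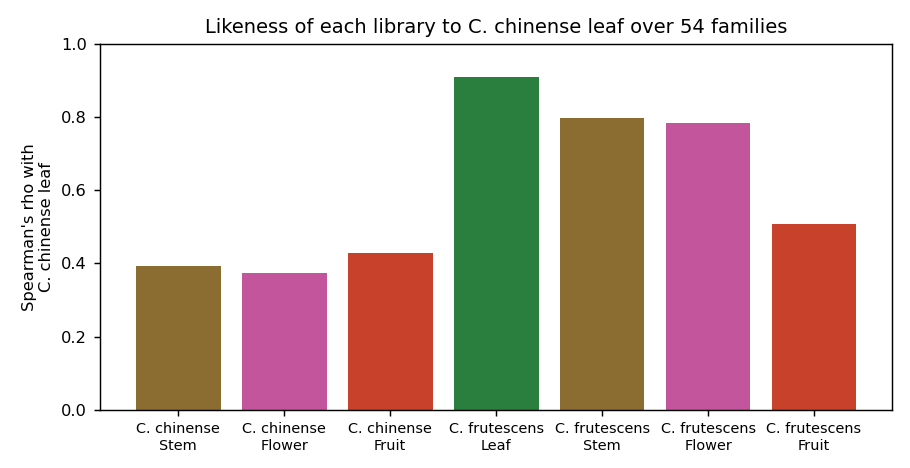
Likeness of 7 libraries to C. chinense leaf, as Spearman's rho over the shares of 54 families (y axis, bars from 0). The highest bar is C. frutescens leaf at 0.91, and the 3 bars of C. chinense stem, flower and fruit reach 0.37 to 0.43.

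Leaf held 811863 listed conserved reads in 823 entries and 529 families, against 1412110, 1079538 and 613569 reads in 415, 319 and 315 families for stem, flower and fruit. Thinned to 613569 reads, the leaf library would list 447 families, against 264 for stem, 252 for flower and 315 for fruit. Thinning evens out all listed reads, those of miR166 among them. Leaf still kept more reads for other families, since 36.3% of its reads lay outside miR166, against 10.9%, 6.13% and 9.40%. Families at equal depth outside miR166 were not counted. In leaf alone of the C. chinense organs 185 families were listed, but they held 245 reads in all, 156 of them had 1 read, and 127 were also listed in a C. frutescens library. The most abundant of these was miR7763, with 11 reads in leaf, against 0 in stem, flower and fruit.

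The miR166 family, which restrains the HD-ZIP III genes of leaf polarity, held 63.7% of the leaf reads (95% interval 63.6 to 63.8), against 89.1%, 93.9% and 90.6% in stem, flower and fruit. That left 36.3% of reads to other families in leaf, against 10.9%, 6.13% and 9.40% in the other organs. In C. frutescens the leaf share of miR166 was 66.8%, inside the range of stem, flower and fruit (76.6%, 42.5% and 60.5%). Intervals here and below are exact and cover counting error only, since reads carry no molecular identifiers. The named entries of miR166 differed too: gma-miR166k held 34.1% of the miR166 reads in leaf and was not among the 3 entries with most reads in stem, flower or fruit, whereas pta-miR166a held 63.2% in leaf, against 79.5%, 98.6% and 97.6%.

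Every other share depends on that of miR166. Of all listed reads, the leaf share was above all 3 other organs for 28 of 55 families (50.9%) and below all 3 for 5 (9.09%). Without miR166 the picture turned round: leaf was above for 11 of 54 (20.4%) and below for 29 (53.7%). The median log2 ratio of the leaf share to the median of the other organs was 0.90 over 55 families with all reads and -1.17 over 54 without miR166. Scaling by the trimmed mean of M-values (TMM) gave a median of 0.66 and DESeq2 size factors gave 0.51. Leaf passed from above to below all 3 other organs between the shares in 7 of 54 families (miR5141, miR482, miR8175, miR1448, miR171, miR5303 and miR5300), 0 of them among the families apart under either share. Values below are therefore given with the share they rest on, and are to be read against these medians.

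**Figure D3:**
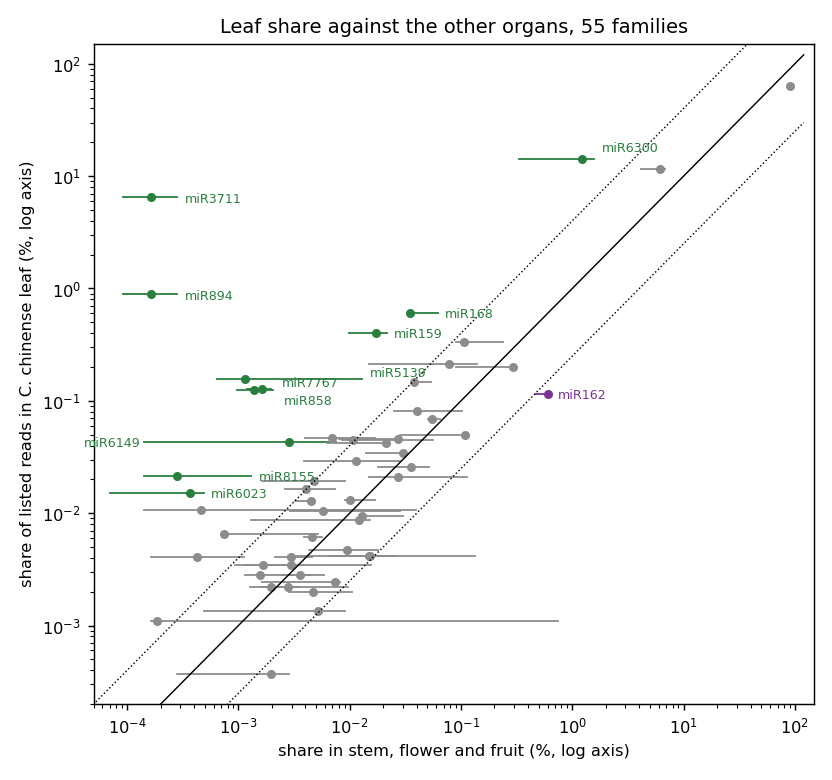
Share of listed reads in C. chinense leaf (%, log axis, y) against the range of stem, flower and fruit (%, log axis, x; line from lowest to highest, dot at the median) for 55 families. The solid diagonal marks equal shares and the dotted lines 4-fold; the 11 families in green are apart and higher, and miR162 in purple is apart and lower.

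With shares of all listed reads alone, 11 of 55 families (20.0%) were apart and higher and 1 (1.82%) was apart and lower. With shares without miR166, 7 of 54 (13.0%) were higher and 6 (11.1%) lower. The 7 higher families of the second count are the same 7 as under both shares, and together they held 8.08% of all leaf reads, against 0.0261%, 0.0132% and 0.0217% in stem, flower and fruit. In C. frutescens leaf, stem, flower and fruit they held 6.88%, 3.75%, 29.9% and 4.12%.

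miR3711, a name from Norway spruce, had by far the highest share of the 7. It was listed with 52798 reads in leaf, against 4 reads in stem, 1 read in flower and 1 read in fruit. That is 6.50% of leaf reads (95% interval 6.45 to 6.56). Against stem, the nearest, the share was 22958-fold higher (interval 8966 to 84265), and without miR166 it was 6855-fold higher. C. frutescens leaf, stem, flower and fruit had 5.24%, 2.38%, 24.7% and 0.435%, so leaf there lay between flower and stem. Stem, flower and fruit of C. chinense all lay below each C. frutescens library.

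miR894, a name from the moss Physcomitrium also found on fragments of rRNA or tRNA, had the same order of organs. It had 7230 reads in leaf (0.891%), against 4, 1 and 1 reads in stem, flower and fruit. The share was 3144-fold that of stem (interval 1227 to 11542), and 939-fold without miR166. In C. frutescens its shares were 0.630% in leaf, against 0.698%, 4.98% and 0.652% in stem, flower and fruit, with leaf the lowest of the 4. Without miR166 it was 1.90% in leaf there, against 2.98%, 8.67% and 1.65%, inside the range.

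miR8155, also on the fragment list, was far less abundant. It had 175 reads in leaf (0.0216%), against 2, 3 and 8 reads in stem, flower and fruit. Leaf was 16.5-fold above fruit (interval 8.21 to 38.9) and 4.28-fold without miR166, where the interval of 2.12 to 10.1 reaches below 4-fold. In C. frutescens 0.0329% of leaf reads were miR8155, against 0.0101%, 0.0136% and 0.0234%, so leaf was the highest organ there as well, by 1.41-fold. A related entry, miR5139, named after Rehmannia, had 1269 reads in leaf, against 184, 7 and 7 in stem, flower and fruit. Its leaf share was 12.0-fold that of stem with all reads and 3.58-fold without miR166, just short of 4-fold. In C. frutescens miR5139 had 0.0320% in leaf, against 0.116%, 0.163% and 0.00320% in stem, flower and fruit. Both entries close with the same run of 18 bases in leaf, in capitals here, so that short reads could be counted under either name.
miR5139 leaf: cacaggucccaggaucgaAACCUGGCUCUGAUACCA
miR8155 leaf: aggaucguAACCUGGCUCUGAUACCA

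miR7767, a name from the grass Brachypodium, had 1035 reads in leaf (0.127%), against 23, 13 and 12 reads in stem, flower and fruit. The leaf share was 65.2-fold that of fruit (interval 37.2 to 127), and 16.9-fold without miR166 (9.61 to 32.8). C. frutescens leaf, with 0.230%, also stood above stem, flower and fruit (0.0187%, 0.113% and 0.0108%), by 2.05-fold with all reads and 3.55-fold without miR166. miR7767 and miR8155 were the 2 of 7 families for which leaf was the highest organ in both species, and neither reached 4-fold in C. frutescens.

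miR159, which cuts the messages of GAMYB transcription factors of anther and seed development and keeps them low in leaves, was the most abundant of the 7 with a well-known target. It had 3262 reads in leaf, against 305 in stem, 106 in flower and 105 in fruit. The shares were 0.402% in leaf, against 0.0216%, 0.00982% and 0.0171%. Leaf was 18.6-fold above stem (interval 16.5 to 20.99) and 5.55-fold without miR166 (4.94 to 6.27). In C. frutescens the share was 0.698% in leaf, close to stem at 0.603%, above flower at 0.0545% and below fruit at 2.47%. Over entries of 24 nt or less, which leave out ath-miR159a in leaf at 25 nt, the leaf share lay inside the range of the other organs.

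The leaf reads of miR159 stood almost wholly under 1 of the entries whose sum made the call, so their make-up describes that sum. ath-miR159a, with the core shown above, held 97.2% of miR159 reads in leaf (3172 reads), against 41.0%, 40.6% and 48.6% in stem, flower and fruit. The 5p entry gma-miR159e-5p, the opposite arm of the hairpin, held 49.2%, 43.4% and 40.0% in those 3 organs and was not among the 3 leading entries in leaf. In C. frutescens ath-miR159a held 98.5% in leaf, against 93.8%, 88.9% and 82.8% in stem, flower and fruit. The sequences of miR159 and miR319 are closely alike, and reads near the border of both families could be counted under either.

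miR858, which represses R2R3-MYB regulators of flavonoid synthesis in Arabidopsis, had 1007 reads in leaf (0.124%), against 29, 15 and 6 in stem, flower and fruit. Leaf was 60.4-fold above stem (interval 41.8 to 90.7) and, without miR166, 15.1-fold above flower (9.09 to 27.0). In C. frutescens leaf had 0.0523%, against 0.0370% in stem, 0.000485% in flower and 0.161% in fruit, the highest. Its printed sequences are among the shorter ones, 23 nt in leaf, and over entries of 24 nt or less its log2 distance from the other organs was 4.70 with all reads and 5.75 without miR166. It was the 1 family of 2 on the MYB list with 50 or more reads.

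miR6023, a Solanaceae family known in tomato to target receptor-like resistance genes, was rare. It had 123 reads in leaf (0.0152%), against 1 read in stem, 4 in flower and 0 in fruit, which allows a fruit share of up to 0.000489% by the limit of 3 reads. With fruit set at 3 reads, leaf was 30.99-fold higher than fruit. The exact counting interval of the ratio, taken with 0 reads in fruit, starts at 24.8-fold and has no upper limit. Against flower, where the family was counted, the ratio was 40.9 (interval 15.6 to 152). Without miR166 leaf was 6.90-fold above flower (2.63 to 25.7), so counting error alone reaches below 4-fold. In C. frutescens it had 6 reads in leaf, against 14, 1 and 3514 in stem, flower and fruit: fruit, not leaf, was the high organ there.

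**Figure D4:**
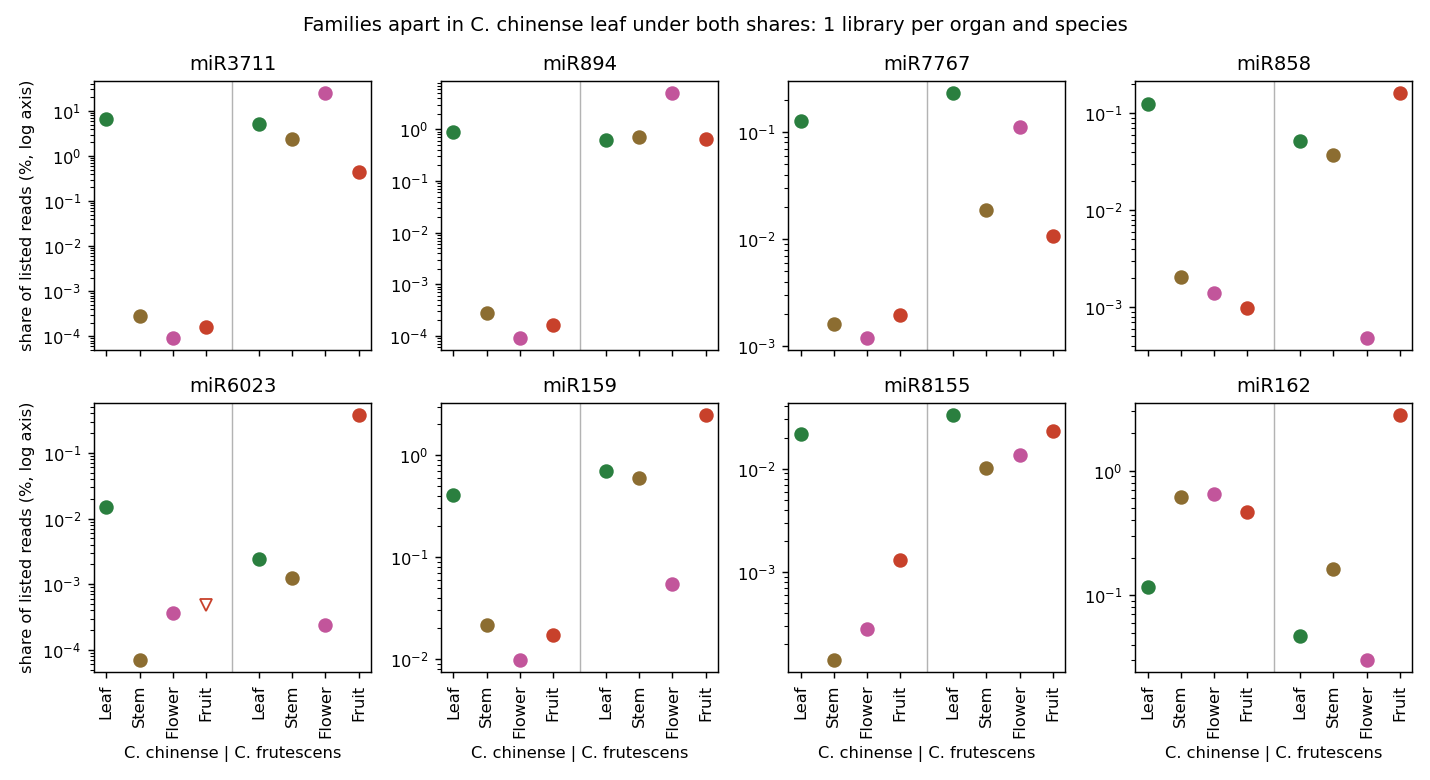
Share of listed reads (%, log axis) of the 8 families apart under both shares, in leaf, stem, flower and fruit of C. chinense (left of the grey line) and C. frutescens (right), 1 point per library. The open triangle is the limit set by 3 reads for miR6023 in C. chinense fruit, where none was listed. In 7 panels C. chinense leaf is above the other 3 organs and within the C. frutescens points; in the panel of miR162 it is below the other C. chinense organs.

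miR162, which cuts the message of DICER-LIKE1, the enzyme that frees plant miRNAs from their hairpins, was the single family apart and lower under both shares. It had 936 reads in leaf, against 8579 in stem, 6945 in flower and 2868 in fruit. The shares were 0.115% in leaf, against 0.608%, 0.643% and 0.467%, and leaf lay below all 3. The leaf share was 4.05 times lower than that of fruit (interval 3.76 to 4.37), on the edge of 4-fold, and 15.7 times lower without miR166 (14.5 to 16.9). On the log2 scale its distance with all reads was -1.97 with TMM factors and -1.68 when the fragment names and miR3711 were left out, both short of 4-fold. Over entries of 24 nt or less miR162 lay inside the range. C. frutescens leaf, with 0.0471%, lay between flower (0.0303%) and stem (0.161%), with fruit far above at 2.78%. Within the family, ath-miR162b-3p held 71.4% of reads in leaf, against 64.1%, 50.4% and 70.3%, and 71.6% in C. frutescens leaf.

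Another regulator of the same machinery moved the other way with shares of all reads. miR168, which cuts the message of ARGONAUTE1, had 4957 reads in leaf (0.611%), against 494, 357 and 379 in stem, flower and fruit. It was 9.88-fold above fruit with all reads and 2.56-fold without miR166, so above all 3 organs under both but apart under the first only. Over entries of 24 nt or less its log2 distance with all reads was 0.82, short of 4-fold. In C. frutescens leaf it had 0.691%, against 0.414%, 0.367% and 1.06%. Its entry bra-miR168c-5p held 76.6% of miR168 in leaf, against 7.69% in stem, 57.4% in flower and 68.6% in fruit, and 70.6% to 78.9% in the C. frutescens libraries. miR403, which acts on AGO2, had 133 reads in leaf, against 37, 80 and 25: it was 2.21-fold above with all reads and inside the range without miR166. Of the 3 families of the small RNA pathway, then, 1 was apart and lower under both shares, 1 was apart and higher with all reads and 1 was not apart, beside 20.0% higher and 1.82% lower over all families. Their median log2 ratio was 2.01 with all reads and 0.06 without miR166, beside 0.90 and -1.17.

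miR6300, an entry named in soybean and often traced to a tRNA fragment, was the second most abundant family of leaf. It had 115315 reads there, 14.2% of all, against 22350, 3558 and 7531 reads (1.58%, 0.330% and 1.23%) in stem, flower and fruit. Its leaf share was 8.97-fold that of stem, and 2.68-fold without miR166. The C. frutescens libraries had 8.87% in leaf, against 8.28%, 4.14% and 8.07%. It was printed with 36 nt in all 8 libraries.
miR6300 (gma-miR6300), leaf: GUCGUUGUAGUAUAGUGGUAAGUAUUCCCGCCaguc
miR6300 (gma-miR6300), stem: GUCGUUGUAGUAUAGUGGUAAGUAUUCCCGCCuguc

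Over the fragment list as a whole, 6 of 8 families were above all 3 organs with all reads, 4 were apart and higher (miR6300, miR894, miR5139 and miR8155) and 2 of them stayed so without miR166. Over all families 28 of 55 were above with all reads and 11 of 55 apart and higher. The list held 15.7% of leaf reads, against 2.59%, 0.483% and 1.35% in stem, flower and fruit. Its median log2 ratio was 3.06 with all reads and 0.84 without miR166, beside 0.90 and -1.17 over all families. The other 4 members were not apart: miR6478 and miR8175 lay above all 3 organs by less than 4-fold, and miR2916 and miR6173 lay inside the range. miR2916 had 9 reads in leaf, against 10490 in stem, 2 in flower and 1 in fruit. miR8175 had 2738 reads in leaf, 0.337%, against 3345, 981 and 648 reads (0.237%, 0.0909% and 0.106%), and without miR166 its leaf share was 1.21 times below the other organs. The origin of these reads was not checked. Entries ending in CCA held 31.2% of the leaf reads outside miR166, against 3.78%, 2.78% and 3.30% in stem, flower and fruit. One of them is pab-miR3711, which is not on this list and held 17.9% of the leaf reads outside miR166. Beside it, miR894, miR5139 and miR8155 held 2.45%, 0.430% and 0.0593%, and other entries made up the rest. That rest is too large to leave out ghr-miR482a (26252 leaf reads), an entry of the conserved family miR482. A CCA end is thus not read as a mark of tRNA. In C. frutescens leaf, stem, flower and fruit entries ending in CCA held 22.2%, 15.1%, 53.8% and 3.52%. Counted by entries, 2.07% ended in CCA in C. chinense leaf, against 3.33%, 3.01% and 3.92% in its stem, flower and fruit.

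**Figure D5:**
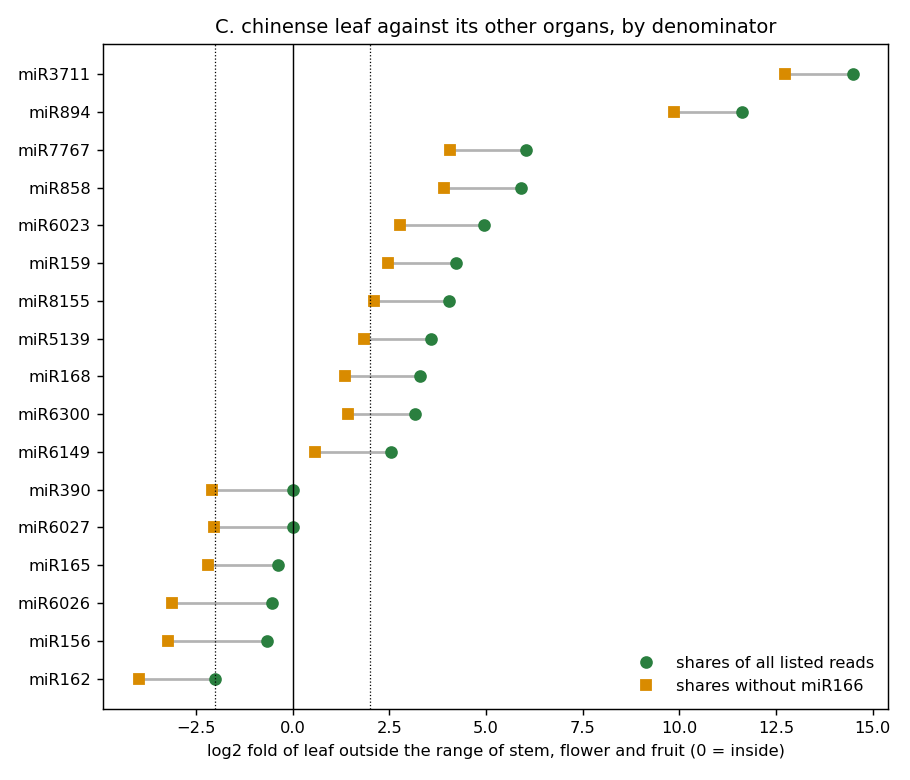
Distance of the leaf share from the range of stem, flower and fruit (log2 fold, x axis; 0 means inside the range, dotted lines at 4-fold) for the 17 families apart under at least 1 of the shares. Circles take all listed reads and squares leave out miR166; every square lies left of its circle, and the 7 top families stay right of 4-fold by both.

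Without miR166, 5 further families were apart and lower, all inside the range or at most 1.57 times below it with all reads. miR390, which starts the making of trans-acting siRNAs against auxin response factors, had 170 reads in leaf, against 1602, 162 and 166. It was inside the range with all reads and 4.25 times lower without miR166. miR6027, a Solanaceae family, had 208 reads in leaf, against 725, 192 and 219, and was 4.11 times lower without miR166. miR156, which restrains SPL genes of phase change, had 34 reads in leaf, against 212, 71 and 825. It was 1.57 times lower with all reads (interval 1.03 to 2.44) and 9.31 times lower without miR166 (6.10 to 14.4). The others were miR165, sister of miR166, with 77 reads in leaf, against 181, 326 and 75, and miR6026, with 16, against 148, 31 and 29. For these 5 the call hangs on the choice of denominator. Without miR166, 0 of the 5 lay below all 3 other organs in C. frutescens leaf. With all reads 1 of the 5 did, miR156, by 1.13 times.

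The 16 developmental families had no common direction with all reads: 4 were above all 3 organs, 3 below and 9 inside the range, with a median log2 ratio of -0.40 beside 0.90 over all families, of which 50.9% were above and 9.09% below. Without miR166, 1 of 15 was above (miR159), 11 were below and 3 inside, beside 20.4% above and 53.7% below over all families, and the median was -2.32 beside -1.17. miR396, which targets growth-regulating factors, had 1612 reads in leaf (0.199%), against 1264, 3142 and 1898 (0.0895%, 0.291% and 0.309%). It lay inside the range with all reads and 1.51 times below it without miR166. miR160, which targets auxin response factors, had 407 reads in leaf, against 1683, 303 and 671, also inside the range with all reads. The share of miR319 in leaf, 0.00419%, lay between fruit at 0.00277% and stem at 0.0154% with all reads and was 2.56 times below the other organs without miR166. The leaf share of miR319 in C. frutescens lay 10.0 times below the other organs with all reads and 8.41 times without miR166.

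Among the resistance gene and Solanaceae families, 9 of 15 had 50 or more reads. With all reads 4 were above all 3 organs, 1 was below and 4 lay inside, and the median log2 ratio was 0.33, beside 50.9% above and a median of 0.90 over all families. Without miR166, 1 was above, 6 were below and 2 inside, with a median of -1.62, beside 53.7% below and -1.17 over all families. miR482, which targets NBS-LRR resistance genes, was the third family of leaf with 93136 reads. Its share was 11.5% in leaf, against 6.77%, 4.13% and 6.16%, 1.69-fold above stem. Of the reads outside miR166 it held 31.6% in leaf, against 62.4%, 67.4% and 65.5%, which is 1.98 times lower than stem.

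The entries behind miR482 had another order in leaf, a description of the reads in its sum. sly-miR482b, named in tomato, held 71.3% of miR482 reads in leaf (66447 reads), against 7.68%, 5.11% and 13.3% in stem, flower and fruit. ghr-miR482a, named in cotton, held 28.2% in leaf, against 91.7%, 94.3% and 85.3%. In C. frutescens sly-miR482b held 67.5% in leaf, against 67.4%, 67.6% and 41.8%, and leaf there lay between flower and stem. miR5300, another NBS-LRR family, had 562 reads in leaf, against 711, 697 and 338, and was 1.07-fold above the other organs with all reads (interval 0.958 to 1.20) but 2.44 times below them without miR166 (2.18 to 2.73). miR6025 had 87 reads in leaf, against 2, 5 and 242, inside the range under both shares.

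The copper, sulfate and phosphate families were few: of 7 on the list 2 had 50 or more reads, with a median log2 ratio of 1.87 with all reads and 0.12 without miR166, beside 0.90 and -1.17 over all families. miR398, which targets copper/zinc superoxide dismutases, had 383 reads in leaf, against 98, 43 and 104. It was 2.78-fold above fruit with all reads (interval 2.24 to 3.49), short of 4-fold, and inside the range without miR166. miR408, which targets copper proteins such as plantacyanin, had 339 reads in leaf, against 299, 67 and 137, and was 1.87-fold above with all reads and inside the range without miR166. In C. frutescens leaf miR398 had 0.0892%, below stem, flower and fruit (0.315%, 0.0957% and 0.992%).

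Nearest to the 4-fold limit with all reads stood miR6149 at 5.78-fold and miR6300 at 8.97-fold past it, and miR4376 at 3.66-fold and miR398 at 2.78-fold short of it. miR6149, from potato and tobacco names, had 352 reads in leaf, against 2, 31 and 46, and was 1.497-fold above without miR166. On the lower side no family but miR162 passed, and miR156 at 1.57 and miR6026 at 1.46 came next. Without miR166, miR8155 at 4.28-fold and miR159 at 5.55-fold were just past it and miR5139 at 3.58-fold and miR6300 at 2.68-fold just short. On the lower side, miR6027 at 4.11 and miR390 at 4.25 times were past it, and miR2599 at 3.33 and miR160 at 3.32 times short of it.

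Of the 10 most abundant leaf families, miR5368 remains to be given, with 1713 reads in leaf (0.211%), against 212, 845 and 857 reads, 1.51-fold above fruit with all reads and inside the range without miR166. Together these 10 held 98.5% of leaf reads. The families miR3711 and miR894 ranked 4 and 5 in leaf, against a tied rank of 73 in stem, 202 in flower and 175 in fruit. In C. frutescens leaf they ranked 4 and 8.

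By the same rule C. frutescens leaf was apart from its own stem, flower and fruit in fewer families, 2 of 64 (3.12%) higher and 1 (1.56%) lower under both shares. None of the 3 was among the 8 families apart in C. chinense leaf. They were miR6149, with 92 reads in leaf, against 37, 22 and 56, miR4376, with 53, against 14, 14 and 35, and miR319, with 13, against 2936, 615 and 495. With all reads miR6149 was 5.78-fold above the other organs in C. chinense leaf and 6.25-fold in C. frutescens leaf, and without miR166 it was 1.497-fold (interval 1.10 to 2.08) and 7.44-fold above. miR4376, which targets a calcium pump gene in tomato, was 3.66-fold above in C. chinense with all reads, with 33 reads in leaf, against 6, 12 and 1. Without miR166 it lay inside the range there, and 6.86-fold above in C. frutescens. For both, 4 libraries a species cannot separate organ from library, and leaf as the highest organ in both species, which held with all reads, cannot give an exact permutation p below 0.0625.

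The C. chinense leaf share lay inside the C. frutescens range for 7 of the 7 higher families, beside 42 of all 55. For 5 of the 7 (miR3711, miR894, miR7767, miR159 and miR8155) C. chinense stem, flower and fruit all lay below each C. frutescens library, as they did for 12 of all 55. Leaf was the highest organ of C. frutescens for 2 of the 7, and past 4-fold there for 0 of 7.

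Predicted miRNAs, which the sheets list apart from the conserved entries, were few in leaf. Leaf had 115 predicted sequences with 809 reads, against 431 with 2473 in stem, 812 with 6628 in flower and 308 with 1525 in fruit. Per 1000 conserved reads that is 0.996 in leaf, against 1.75, 6.14 and 2.49, the lowest of the 4. In C. frutescens leaf, stem, flower and fruit it was 2.73, 1.79, 4.92 and 16.3, with stem the lowest. Sequences of 24 nt made up 34.8% of the leaf entries, against 26.0%, 25.7% and 26.6%. Those of 21 nt made up 2.61% (3 entries), against 10.9%, 10.7% and 8.77%. In C. frutescens leaf, stem, flower and fruit, 24.7%, 28.8%, 23.4% and 45.4% had 24 nt. There 13.5%, 3.41%, 3.65% and 2.28% had 21 nt, so that leaf was the highest organ, not the lowest. Of the 115 sequences 87 (75.7%) were listed in leaf alone of the 8 libraries. The same count was not made for the other libraries, so it is not read as a trait of leaf. With stem, flower and fruit leaf shared 8, 9 and 5 sequences, and 3 with C. frutescens leaf. These are 1.86%, 1.11%, 1.63% and 3.37% of the sequences of those libraries.

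The 5 predicted sequences with most leaf reads are shown because they name what leaf carries beyond the conserved families. Capitals run through, as no part is singled out.
Cap-m0065-5p: CUCUGAAGACGAAGCUACACCUU
Cap-m0035-3p: GAAAUCUUGCCGAUUCCCCCCCA
Cap-m0059-3p: CAUCGGUAAGACAACUUUGGCU
Cap-m0086-3p: UUUUUCACGAUGAUCGGGGUUACU
Cap-m0009-5p: CGAUGAGCCUCGUAUACGCAUG
Cap-m0065-5p had 62 reads in leaf, against 18 in flower and 0 in stem and fruit. Cap-m0035-3p had 56 reads in leaf, against 17 in stem, 0 in flower and 19 in fruit, and was the only one of the 5 listed in C. frutescens, with 35 reads in leaf, against 136 in stem, 0 in flower and 33 in fruit. Cap-m0059-3p had 48 reads in leaf and none in the other 7 libraries. The remaining 2 were shared with flower: Cap-m0086-3p had 38 reads in leaf, against 31 in flower, and Cap-m0009-5p had 32, against 13. A sequence that a library's sheet leaves out may have been present but not predicted there.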

How the data were processed

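Small RNA was measured in 1 library each of leaf, stem, flower and fruit of C. chinense and C. frutescens. Each library holds pooled RNA of 3 biological replicates, was made with a TruSeq kit and sequenced with Illumina's Genome Analyser II (source: the labels' protocols). The authors deposited raw read counts per miRNA entry, with 1 printed sequence each. For trimming, aligner, miRNA database and predictor, the tool is not given in the sources used. Sheets list miRNA reads only, so the sequencing depth is unknown. In the conserved sheets of C. chinense leaf and stem 1 line each was empty.

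Counts were summed by miR number (Python 3.11.15, pandas 2.3.3, numpy 2.4.6). Shares have exact Clopper-Pearson 95% intervals (scipy 1.17.1), ratios exact conditional binomial ones, and a family with 0 reads entered at 3 reads. TMM factors (edgeR 4.0.16) and DESeq2 1.42.0 size factors, in R 4.3.3, were scaling alternatives only. Others were the fold, read minimum, floor, organs left out, entry names, printed length and fragment names. The code of the calling rule was checked on 20 simulated tables, with shares of all reads only. Their libraries shared a common profile, with changes put into leaf and counting error added. They hold no other difference between libraries, so they say nothing on how the rule performs in these data. Families named are those apart under both shares, the 3 with most reads per direction under 1 share alone, the 10 highest in leaf, 4 per list, and 2 on each side of the limit. The families and lists were chosen with earlier results of these data known. Plots used matplotlib 3.10.9.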

Additional observations from a re-analysis of the deposited data

Results flagged for a closer look

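In 4 families C. chinense leaf lay above stem, flower and fruit while C. frutescens leaf lay below all 3 of its other organs, with shares of all listed reads. Without miR166 this held for 0 of the 4: C. frutescens leaf lay inside the range for miR894 and miR398, and leaf lay below the other organs in both species for miR5141 and miR5303. None of these differences was tested, as each organ has 1 library. For miR894 the leaf share was 3144-fold above the highest other organ in C. chinense, and -1.04 (1.04 times below the lowest) in C. frutescens. The same pair of values was 2.78 and -1.07 for miR398, 2.62 and -2.89 for miR5141, and 1.09 and -1.27 for miR5303. miR5141 had 104 reads in C. chinense leaf, against 63, 35 and 30 in stem, flower and fruit, and 1 read in C. frutescens leaf, against 22, 5 and 11. miR5303 had 50 reads in C. chinense leaf, against 80, 49 and 24, and 14 in C. frutescens leaf, against 82, 50 and 287. Without miR166 the C. chinense leaf share of miR5141 was 1.17 times below the other organs and that of miR5303 2.45 times below, beside 1.72 and 1.23 times in C. frutescens leaf.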

How the results depend on the processing

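The counts of families apart, in the order higher and lower with all reads, higher and lower without miR166, and higher and lower under both, were 11, 1, 7, 6, 7 and 1. A limit of 2-fold gave 17 higher with all reads and 18 lower without miR166. One of 8-fold gave 0 lower with all reads, 4 higher and 3 lower without miR166, and 4 higher and 0 lower under both, losing miR159, miR6023 and miR8155. A minimum of 10 reads gave 2 lower with all reads, 10 lower without miR166 and 2 lower under both (miR8021 joined). One of 200 reads gave 9 higher with all reads and 5 higher under both, losing miR6023 and miR8155. With 1 organ left out, the 6 counts began with 12 to 14, 1, and 7 to 8. In the same order, the others were 8 to 11, 7 to 8, and 1. Without stem 11 were lower without miR166 and miR5139 joined the higher ones. Leaving out an organ narrows the range or keeps it, so a leaf share outside stays outside and no fold can shrink. Entries of 24 nt or less gave 4 higher with all reads, 3 higher and 0 lower without miR166, and 3 higher and 0 lower under both: miR858 and miR6023 stayed, miR6149 joined, and miR3711, miR894, miR7767, miR159 and miR8155 were lost, whose leaf entries are printed longer. Leaving out the fragment names and miR3711 gave 7 higher and 0 lower with all reads, 5 higher and 1 lower without miR166, and 5 higher and 0 lower under both. Of the 7 higher under both, 4 stayed, miR3711, miR8155 and miR894 were left out by this setting, and miR168 joined. Entry names in place of families gave 22, 6, 11, 13, 11 and 4. TMM factors gave 0 lower with all reads. The leaf share of miR166 was 61.1% over entries of 24 nt or less and 81.8% without the fragment names and miR3711. The other causes were not tested. Alternatives were run for the 17 families apart under either share, and none of them reversed its side. The floor of 1 read and the organs left out could not have reversed a side. Between the shares themselves 7 other families turned. Of 155 family values under alternatives, 113 stayed within counting error and 42 moved by more, and 5 of the 155 fell inside the range. Many of the 113 could not have moved, so this count is no measure of stability. The floor of 1 read changes only a family with 0 reads in an organ. An organ left out changes a fold only where it was the nearest one. A family that a setting left out or took below the read minimum has no value there. miR3711 and miR894, for example, have none over entries of 24 nt or less, so calls lost in this way are not among the 155. No paired analysis was possible because each organ has 1 library and the labels give no replicate numbers. With 1 library per organ only counting error could be measured. Families with few reads in an organ, such as miR3711 and miR894, have wide ratio intervals for that reason.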
